A study of Mus musculus with 12 samples.

Results

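The Igf2-H19 imprinted domain lies on mouse chromosome 7 and was tiled with oligonucleotides on an Agilent custom array for H3K27me3 ChIP. All non-control probes located in chr7:149700001-149900000 (mm9) were taken, 1318 of 48316 probes, each 60 bases long. The probes started every 60 bp (median), covered chromosome 7 from 149758545 to 149858777, a span of 100.2 kb, and left no gap above 459 bp. The domain was chosen from measured values of NPCs against ESCs on these arrays, so its NPC difference is a description, and the calls that a fit over all tiles makes there support nothing. H3K27me3 ChIP DNA and input DNA were hybridised together on 12 arrays, R1 and R2 of 6 conditions of the 46c mouse line, an ESC line with GFP at the Sox1 gene. The conditions were ESCs labelled eGFP (the control), 4 ESC populations transfected with a TALE-Vp64 activator, namely tShh-Vp64 (Shh promoter), tSBE6-Vp64 and tSBE2-Vp64 (a Shh brain enhancer each) and tSBE(6+2)-Vp64 (both enhancers), and NPCs derived in N2B27 medium. TALE-Vp64 is a designed DNA-binding protein fused to a viral activation domain, and none of these constructs targets chromosome 7. R1 and R2 were averaged to 1 sample per condition because for 3 conditions the labels name a single biological replicate for both arrays, and all populations come from 1 cell line. NPCs are represented by 1 sample, and the labels do not give their day of differentiation.

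H3K27me3, the trimethylation of lysine 27 of histone H3, is deposited by polycomb repressive complex 2 and is known for marking silent developmental genes. Igf2 encodes a fetal growth factor that is expressed from the paternal allele, and H19 encodes a maternally expressed long non-coding RNA that is the host of the microRNA miR-675. Both genes are controlled by an imprinting control region upstream of H19, which is methylated on the paternal allele and bound on the maternal allele by the insulator protein CTCF, so that enhancers beyond H19 do not reach Igf2. The arrays do not separate the alleles, and every value below is the sum of both.

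In the GENCODE annotation of mm9, the tiled part held H19 (ENSMUSG00000000031.9, chr7:149761434-149764048, minus strand), Mir675 inside it (chr7:149762969-149763052), Igf2 (ENSMUSG00000048583.9, chr7:149836673-149852721, minus strand), Mir483 inside Igf2 (chr7:149840829-149840901) and Igf2as (ENSMUSG00000086266.1, chr7:149845598-149856261, plus strand), a lincRNA antisense to the 5′ part of Igf2. Tnnt3, Mrpl23, Nctc1 and Ins2 also reach into the bounds used for selection, but no probe covered them. None of 34 other imprinted or IGF pathway genes looked for, among them Igf2r, Igf1r, Cdkn1c, Kcnq1 and Dlk1, was found to have a probe on the array. Of these, Kcnq1ot1 was not in the annotation and could not be located. The domain could therefore not be compared with another imprinted locus of this list.

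The imprinting control region was taken as the 2 kb from 2 to 4 kb upstream of the H19 start site (chr7:149766048-149768048), and its CTCF sites can be seen in the sequence. A CTCF core, CCGCNNGGNGGCAG, was searched on both strands of the tiled part and matched 4 times, each time in this region and on the minus strand, outside any annotated gene. The matches are shown because they place the ratios of this region on known features, with the core in capitals, from the site nearest H19 to the farthest.
site1, chr7:149766201-149766240: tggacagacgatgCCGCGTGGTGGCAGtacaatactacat
site2, chr7:149766656-149766695: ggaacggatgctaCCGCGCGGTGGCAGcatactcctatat
site3, chr7:149767682-149767721: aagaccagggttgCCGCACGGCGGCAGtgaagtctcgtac
site4, chr7:149767926-149767965: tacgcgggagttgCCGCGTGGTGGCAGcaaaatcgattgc
Of all 2297 tiles of 2 kb on the array, 0.218% held a match, and in the domain 1 of 51 tiles did. A match is only a run of letters and does not show that CTCF was bound in these cells.

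Values are log2 ratios of the red (Cy5) over the green (Cy3) signal, centred on each array's median, so 0 is the middle of the array and a positive value is a higher ratio. By the labels, Cy3 marks the ChIP DNA and Cy5 the input DNA, and the heading of the deposited ratios also gives them as Cy3 over Cy5, for ChIP over input. The deposited values nevertheless followed log2 Cy5 over Cy3, with correlations over the probes of the domain of 0.926 (NPCs) to 0.976 (tShh-Vp64 ESCs). Signs here follow the deposited ratios, and each of them turns round if Cy3 was the ChIP channel, as labels and heading have it. The direction is not settled. As a check of the cells, the promoter of Pou5f1, a pluripotency factor, had a log2 ratio of -0.56 ± 0.086 (SD, n = 5 ESC populations) in ESCs and 2.24 in NPCs, and that of Nanog -0.625 ± 0.13 and 1.64. The promoter of Sox2, also listed as an ESC marker, was at -0.17 ± 0.089 and 0.64. Zfp42, listed too, had no probe, and Sox1, a listed neural marker, was not found in the annotation. Among neural genes the promoter of Nes, a progenitor marker, went from 0.76 ± 0.12 to -0.077, whereas those of Pax6 (1.88 ± 0.35 and 3.13) and Six3 (1.61 ± 0.28 and 3.03) were higher in NPCs. Over the probes of the domain R1 and R2 correlated at 0.787 to 0.879. Per array, 78.0% to 98.7% of the domain's probes had a green signal well above background and 91.5% to 99.2% a red one, with the lowest green share on tSBE(6+2)-Vp64 array R1. Slide 2 held NPCs and tSBE(6+2)-Vp64 ESCs, and slide 1 the other 4 populations.

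**Figure D1:**
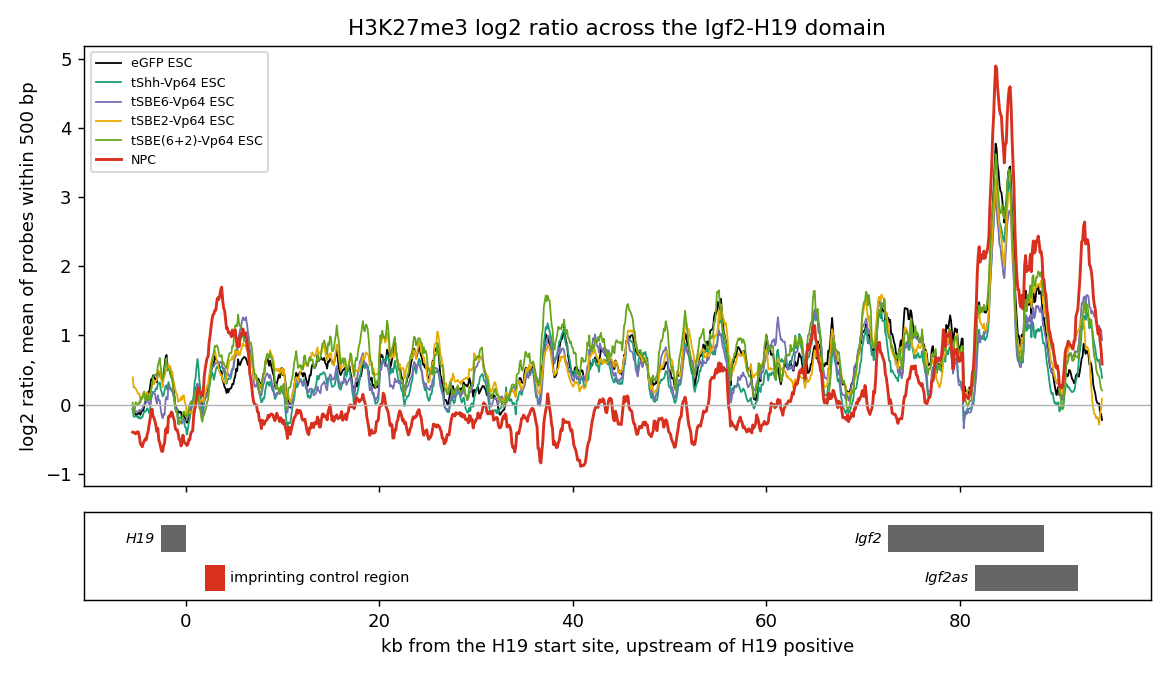
Log2 ratio along the Igf2-H19 domain for the 6 conditions, as the mean of probes within 500 bp of each point, against the distance in kb from the H19 start site; bars show H19, Igf2, Igf2as and the imprinting control region. The highest point lies inside the 5′ part of Igf2 in every condition, up to 4.90 in NPCs, and the NPC line runs below the ESC lines over most of the sequence between H19 and Igf2 and above them at the imprinting control region.

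The domain as a whole stood above the middle of the array in ESCs and was uneven along its length. Its mean log2 ratio was 0.60 in eGFP ESCs, 0.46 with tShh-Vp64, 0.54 with tSBE6-Vp64, 0.64 with tSBE2-Vp64, 0.74 with tSBE(6+2)-Vp64, and 0.18 in NPCs. NPCs were the lowest of the 6 conditions, and the ESC populations had an SD of 0.105. Between 72.7% and 86.3% of the probes were above 0 in the ESC populations, against 48.0% to 48.9% of the other probes of the array. In NPCs the share was 47.9% inside the domain and 49.3% outside it.

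The level of the domain was compared with other tiled sequence within each condition. It was higher than the mean of all other probes in 5 of 6 conditions, by 0.41 ± 0.28 (SD, n = 6 conditions), and lower in NPCs (-0.12), a difference that did not pass the test (exact two-sided sign-flip permutation test, p = 0.0625, adjusted p = 0.0938 over the 3 comparisons). Against the tiled region of Shh, 12390 probes, it was higher in 6 of 6 conditions by 0.59 ± 0.25, with p = 0.0312, the smallest p that 6 conditions allow in this exact test, and an adjusted p of 0.0938. It did not differ beyond the spread from the tiled region that holds the Hoxd genes, a known polycomb target (-0.12 ± 0.31, lower in 4 of 6 conditions, exact permutation p = 0.469, adjusted p = 0.469). That region was taken whole (chr2:74349931-74723455, 3546 probes), so its mean is not that of the Hoxd genes alone. In NPCs alone the domain lay 0.72 below the Hoxd region, and in the 5 ESC populations the gap ran from -0.14 to 0.12. With loess and scale normalization, with the GC trend removed, or with only probes well above background in green, the differences from the Shh and Hoxd regions each reached an adjusted p of 0.0469. The difference from the Hoxd region was -0.67 with only probes well above background in red and -0.0058 without NPCs. All of these tests count NPCs, whose values were used in choosing the domain, as 1 of the 6 conditions. Without NPCs the difference was 0.52 from all other probes and 0.69 from the Shh region. Each then had an adjusted p of 0.0938 in the exact permutation test, so neither passed.

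H19 had window means near the middle of the array in ESCs. Its promoter, within 2 kb of the start site (55 probes), had a log2 ratio of 0.089 in eGFP ESCs, 0.007 with tShh-Vp64, -0.008 with tSBE6-Vp64, 0.12 with tSBE2-Vp64, 0.052 with tSBE(6+2)-Vp64. The H19 body (36 probes) was at 0.13 ± 0.14 (SD, n = 5), the surroundings of Mir675 within 1 kb at 0.11 ± 0.12, and the sequence tiled downstream of H19, toward its endodermal enhancers, at 0.12 ± 0.10. The highest of these values in any ESC population was 0.31, for the H19 body in tSBE2-Vp64 ESCs. Inside the body the ratio was uneven. At 2 kb downstream of the start site the mean of probes within 500 bp was 0.72 in eGFP ESCs, 0.28 with tShh-Vp64, 0.11 with tSBE6-Vp64, 0.505 with tSBE2-Vp64 and 0.67 with tSBE(6+2)-Vp64. The lowest single probe of the domain (mean over the 6 conditions) was 0.39 kb upstream of the H19 start site, at -1.07 in ESCs and -1.30 in NPCs. The sequence around the start site, 250 bases before it to 50 after (chr7:149763999-149764298, minus strand), is shown because the running mean within 500 bp was lowest beside the start site in eGFP (-0.26) and tShh-Vp64 ESCs (-0.43); it holds 15 CpG, in capitals. In the other conditions the lowest point lay elsewhere, in NPCs at 149804845 (-0.89).
H19 promoter: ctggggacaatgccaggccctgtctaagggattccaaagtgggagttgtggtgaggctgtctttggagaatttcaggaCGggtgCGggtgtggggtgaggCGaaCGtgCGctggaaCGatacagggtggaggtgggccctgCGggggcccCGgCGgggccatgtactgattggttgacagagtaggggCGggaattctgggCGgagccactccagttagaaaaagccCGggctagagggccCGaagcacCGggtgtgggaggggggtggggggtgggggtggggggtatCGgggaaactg
Its 4 probes were at -0.25 ± 0.13 in ESCs and -0.23 in NPCs.

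The imprinting control region stood above the H19 promoter in every condition. Its 31 probes had a log2 ratio of 0.44 in eGFP ESCs, 0.42 with tShh-Vp64, 0.48 with tSBE6-Vp64, 0.45 with tSBE2-Vp64, 0.52 with tSBE(6+2)-Vp64 and 1.29 in NPCs. The SD over the 5 ESC populations, 0.039, was the smallest of any window fixed for the domain, and NPCs stood apart from all of them. R1 and R2 of tSBE(6+2)-Vp64 ESCs were at 0.64 and 0.405 there, a gap of 0.23 that exceeds this SD. The excess over the H19 promoter was 0.60 ± 0.46 (SD, n = 6 conditions, from 0.33 to 1.53, higher in 6 of 6, exact two-sided sign-flip permutation test, p = 0.0312, adjusted p = 0.0312 over 4 pairs of windows). Without NPCs the excess was 0.41 and was positive in 5 of 5 ESC populations, where the exact test cannot go below 0.0625. At the CTCF matches printed above, probes within 250 bp had an ESC mean of 0.11 ± 0.094 at site1, 0.53 ± 0.15 at site2, 0.51 ± 0.17 at site3 and 0.34 ± 0.13 at site4. The NPC values there were 0.62, 1.27, 1.72 and 1.61, above the highest ESC population at each of the 4 matches. Over the array NPCs were above all 5 ESC populations in 38.8% of 2 kb tiles. The 4 matches lie in 1 such tile and the stretches around them overlap, so they are not separate observations.

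The sequence between H19 and Igf2 was moderately raised in ESCs, with no long stretch near the level of Igf2. Its 982 probes had a log2 ratio of 0.52 in eGFP ESCs, 0.40 with tShh-Vp64, 0.47 with tSBE6-Vp64, 0.57 with tSBE2-Vp64, 0.68 with tSBE(6+2)-Vp64, and -0.078 in NPCs. It was lower than the Igf2 gene body in 6 of 6 conditions, by 0.75 on average (-0.75 ± 0.36, exact two-sided sign-flip permutation test, p = 0.0312, adjusted p = 0.0312). This test counts NPCs, whose values were used in choosing the domain. Without NPCs the difference was -0.61, with the same sign in each ESC population, and the exact test cannot then go below 0.0625. The lowest 5 kb tiles of the domain by their mean over the 6 conditions were those that start at 149755001 (-0.084), 149760001 (0.032) and 149795001 (0.14). The first lies downstream of H19 and has probes only from 149758545 on, the second holds H19, and the third lies inside this sequence.

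Igf2 held the highest ratios of the domain, concentrated in its 5′ part. Its gene body (189 probes) had a log2 ratio of 1.30 in eGFP ESCs, 0.94 with tShh-Vp64, 1.00 with tSBE6-Vp64, 1.14 with tSBE2-Vp64, 1.27 with tSBE(6+2)-Vp64 and 1.38 in NPCs. The promoter of the gene record, within 2 kb of its upstream start (47 probes), was at 1.11, 0.75, 0.98, 1.23 and 1.38 in the same order of ESC populations, and at 1.66 in NPCs. Every condition had Igf2 above H19 and above the imprinting control region, except that in NPCs the Igf2 body was below that region with loess and scale normalization (0.95 and 0.97) and in the deposited ratios (0.65 and 0.71). The H19 promoter lay below the Igf2 promoter by 1.18 (-1.18 ± 0.40, from -1.90 to -0.74, lower in 6 of 6 conditions), and the imprinting control region by 0.58 (-0.58 ± 0.22, lower in 6 of 6), each with an adjusted p of 0.0312 in the exact permutation test. The tests of window pairs count NPCs, whose values were used in choosing the domain, as 1 of the 6 conditions. Their p-values measure only the spread between populations of 1 cell line read by the same probes, so a fixed difference between probes would repeat in every condition. In the 5 ESC populations alone the mean differences were -1.04 between the promoters, -0.63 between the imprinting control region and the Igf2 promoter and -0.61 between the intergenic sequence and the Igf2 body, each with the same sign in 5 of 5, and the adjusted p was 0.0625, the smallest that this exact test allows, so none passed. The last of the 4 pairs tested is the one between the intergenic sequence and the Igf2 body given above. The 2 pairs fixed with Ins2 and Th were left out because no probe covers those genes.

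Igf2 is transcribed from several promoters, and the annotated transcripts start in 4 groups, which differed in their ratios. These windows, each with 500 bp added on both sides, were set after the values had been seen and carry no test. The most upstream start, at 149852721, had a log2 ratio of 1.29 ± 0.265 (SD, n = 5) in ESCs and 1.85 in NPCs. The next group, 3 transcripts that start between 149847110 and 149847775, was the highest: 2.31 in eGFP ESCs, 1.88 with tShh-Vp64, 1.90 with tSBE6-Vp64, 1.95 with tSBE2-Vp64, 2.40 with tSBE(6+2)-Vp64 and 3.43 in NPCs. Further along the gene, the group that starts between 149844709 and 149845394 was at 0.14 ± 0.18 in ESCs and 0.39 in NPCs, and the last group (149843371 to 149843401) at 0.64 ± 0.17 and 0.56. High and low start sites of Igf2 thus lay within a few kb of each other in all 6 conditions. The low group lies in the 2 kb tile with the most CpG in the domain, 157 against a median of 17. The tile of the high group, which starts at 149846001, had 91, the next most of the 51 tiles. The probes of the low group had a GC content of 68.0%, against 52.8% at the high group. With the GC trend of each array removed, the ESC means of the high and the low group were 2.07 and 0.031. The part of CpG or GC content in these ratios was not tested.

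**Figure D2:**
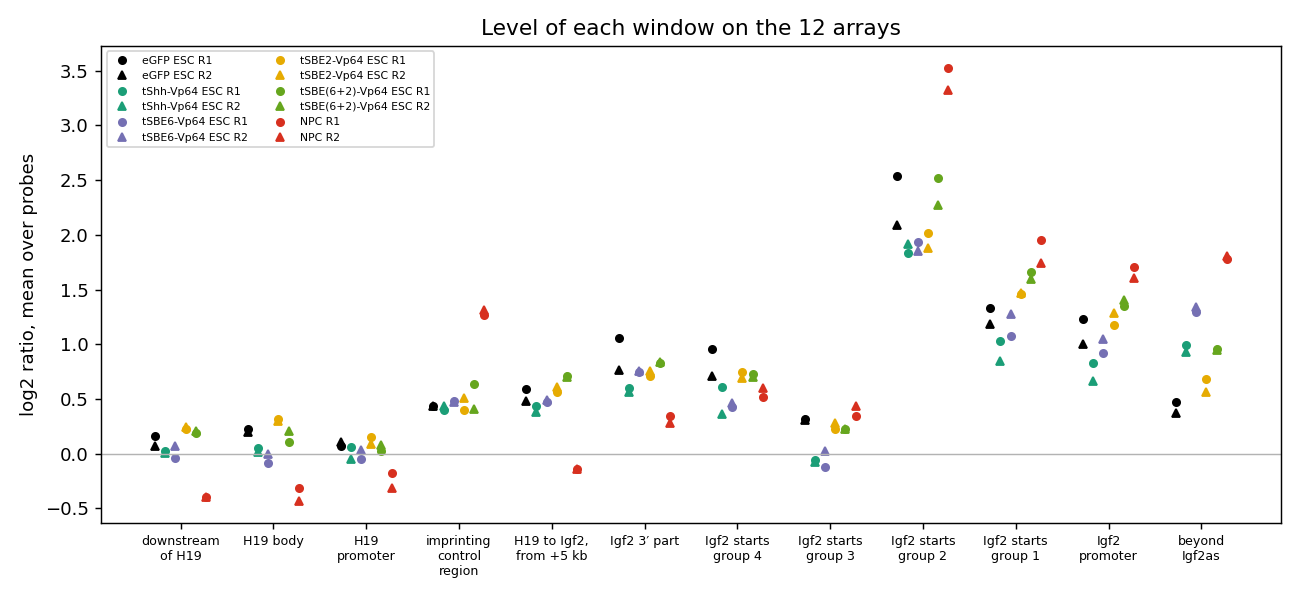
Mean log2 ratio over the probes of each window on the 12 arrays, with circles for R1 and triangles for R2 and 1 colour per condition. The windows run from downstream of H19 on the left to beyond Igf2as on the right; the second group of Igf2 start sites is the highest window on every array, and NPC arrays lie below the ESC arrays from H19 to the 3′ part of Igf2, except at the imprinting control region.

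The summit of the domain was in the same place in 5 of 6 conditions. Averaged over probes within 500 bp, the ratio peaked at 149847745, inside Igf2 and 5.0 kb downstream of its upstream start, at 3.78 in eGFP ESCs, 3.11 with tSBE6-Vp64, 3.26 with tSBE2-Vp64, 3.62 with tSBE(6+2)-Vp64 and 4.90 in NPCs, and at 149849145 in tShh-Vp64 ESCs (3.22). Runs of 2 kb tiles with a ratio of 1 or more on both arrays covered 149846001 to 149850000 with tShh-Vp64 and with tSBE6-Vp64, and extended to 149852000 in eGFP ESCs and to 149854000 with tSBE2-Vp64, with tSBE(6+2)-Vp64 and in NPCs. The NPC arrays were at 0.52 and 0.755 in the tile that follows, and at 1.95 and 1.92 in the one after it, which starts at 149856001. The probe with the highest mean over the 6 conditions, at chr7:149847541-149847600 in an intron of Igf2, is shown with another probe of the summit; both lie outside exons of Igf2 and are printed on the plus strand.
highest probe: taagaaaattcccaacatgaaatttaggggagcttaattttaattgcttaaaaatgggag
probe at chr7:149847432-149847491: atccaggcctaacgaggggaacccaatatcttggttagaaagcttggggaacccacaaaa
Their ESC means were 4.17 and 3.78, and their NPC values 4.90 and 4.85. The 300 bases upstream of the second group of start sites (chr7:149847776-149848075, minus strand, in introns of Igf2 and Igf2as) are shown for contrast with the H19 promoter printed above, since they hold 0 CpG and had a ratio of 3.31 ± 0.335 in ESCs and 5.53 in NPCs, from 2 probes.
upstream of Igf2 start sites: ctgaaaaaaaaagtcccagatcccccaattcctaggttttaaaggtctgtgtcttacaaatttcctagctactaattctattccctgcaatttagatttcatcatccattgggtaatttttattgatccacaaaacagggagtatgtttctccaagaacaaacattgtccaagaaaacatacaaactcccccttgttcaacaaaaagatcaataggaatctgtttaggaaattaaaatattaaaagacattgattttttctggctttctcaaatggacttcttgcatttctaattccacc
The green signal of the highest probe relative to the median of the array was -2.12 on the log2 scale, and it was well above background on 8 of 12 arrays in green and on 12 of 12 in red. In the window of this group of start sites, 54.5% of probes had a green signal well above background on the array with the lowest share. Low green signals thus went with the summit, and their part in its height was not tested.

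Among all 963 tiles of 5 kb on the array, the tile that starts at 149845001 ranked 43rd from the highest in ESCs (1.68 ± 0.20, SD, n = 5 populations) and 54th in NPCs (2.71). The next highest tiles of the domain by mean over the 6 conditions started at 149850001 (0.94 ± 0.19 in ESCs, 1.47 in NPCs) and at 149855001 (0.75 ± 0.26 and 1.46). The 3′ part of Igf2, downstream of all start sites, was at 0.76 ± 0.12 in ESCs and 0.31 in NPCs, and the surroundings of Mir483 within 1 kb, which lie in it, at 0.64 ± 0.105 and 0.28.

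Across the domain the ratio fell with the GC content of the probe. The Pearson correlation over probes ranged from -0.45 to -0.29 among ESC populations and was -0.11 for NPCs, while over the whole array it was 0.006 to 0.15. Over the 51 tiles of 2 kb the number of CpG correlated with the ratio at 0.057 in ESCs and 0.34 in NPCs. Probes and tiles are neighbours on the same arrays and are not independent replicates, so these values describe the profile only.

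No tile of the domain passed the test when a TALE-Vp64 activator was expressed. Of 21 tiles of 5 kb, 0 passed an adjusted p of 0.05 (limma, 4 TALE-Vp64 populations against eGFP), as 0 of 963 did over the array (0%), and at an unadjusted p of 0.05 there were 1 of 21 and 11 of 963. The differences ran from -0.26 to 0.43 with a median of -0.027, which was also the median over the array (-0.028). The lone eGFP sample is assumed to vary like the other populations, and these p-values measure only the spread between populations of 1 cell line. The largest difference was in the last tile, which starts at 149855001: 0.40 in eGFP ESCs, 0.69 with tShh-Vp64, 1.12 with tSBE6-Vp64, 0.69 with tSBE2-Vp64, 0.85 with tSBE(6+2)-Vp64, a difference of 0.43 ± 0.17 (SE; limma, unadjusted p = 0.0328, adjusted p = 0.997). All 4 TALE-Vp64 populations were above eGFP in that tile, but the difference did not pass the correction. At the highest group of Igf2 start sites the same populations differed from eGFP by -0.44, -0.42, -0.36 and 0.084, and at the imprinting control region by at most 0.085 in size. Leaving out tSBE6-Vp64, 0 tiles of the domain had an unadjusted p of 0.05 or less.

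The ESC populations varied most at the end of the tiling, beyond Igf2as (31 probes). The ratio there was 0.42 in eGFP ESCs, 0.96 with tShh-Vp64, 1.32 with tSBE6-Vp64, 0.62 with tSBE2-Vp64, 0.95 with tSBE(6+2)-Vp64, and 1.795 in NPCs. The SD over ESC populations was 0.345, against 0.107 for the sequence between H19 and Igf2, while R1 and R2 differed by no more than 0.12 in any condition. Of its probes 61.3% had a green signal well above background on the array with the lowest share.

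**Figure D3:**
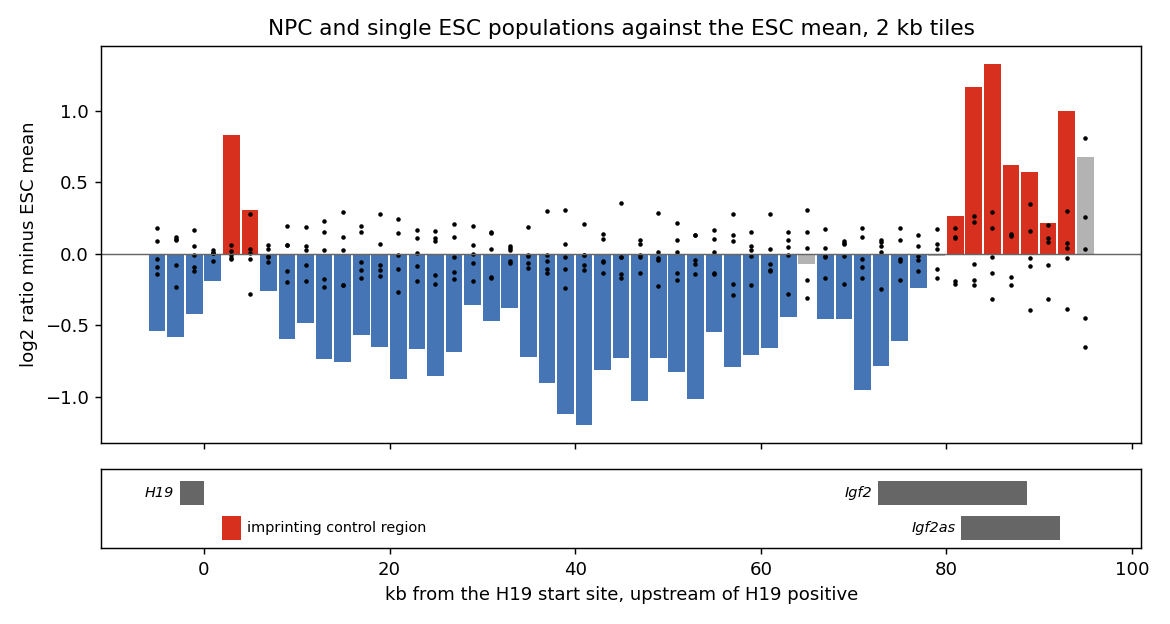
Difference of NPCs from the mean of the 5 ESC populations in log2 ratio for each 2 kb tile (bars), with each ESC population's own deviation (black points), against the distance in kb from the H19 start site. Red bars are above and blue bars below all 5 ESC populations, and grey bars are within their range: 9 tiles are above, 39 below and 3 within.

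Between ESCs and NPCs the domain divided into a long part with lower and several short parts with higher ratios. Because the domain was chosen with this contrast known, the following values are a description. Of 21 tiles of 5 kb, NPCs were below the ESC mean in 17 and above it in 4. The fit over all tiles called 15 of these lower and 4 higher at an adjusted p of 0.05 (limma), calls that the choice of the domain on this contrast fixes in advance and that rest on 1 NPC sample, where over the array 11.5% of tiles were lower and 26.9% higher (111 and 259 tiles; 330 and 201 in the deposited ratios). In tiles of 2 kb, NPCs were below all 5 ESC populations in 39 of 51 and above all of them in 9, against 30.1% and 38.8% over the array. The median difference was -0.57 in the domain and 0.052 over the array. The count of tiles called higher depended on the scaling: it was 0 after loess and scale normalization and 0 when NPC values were divided by their slope of 1.245 on the ESC mean, and 2 with the deposited ratios, whereas 15 to 17 tiles were called lower under these settings. The slope of tSBE(6+2)-Vp64 ESCs, which share slide 2 with NPCs, on the mean of the other ESC populations was 1.202 over all tiles. The part of the slide in these slopes was not tested. Within slide 2 the domain mean was 0.74 in tSBE(6+2)-Vp64 ESCs and 0.18 in NPCs, a difference of -0.56 beside -0.415 from all ESC populations.

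The lower part ran from downstream of H19 to the 3′ part of Igf2. Apart from the first 5 kb upstream of H19, the sequence up to Igf2 was at 0.54 in eGFP ESCs, 0.41 with tShh-Vp64, 0.48 with tSBE6-Vp64, 0.59 with tSBE2-Vp64, 0.70 with tSBE(6+2)-Vp64, and at -0.14 on both NPC arrays. NPCs were thus 0.68 below the ESC mean there (-0.68; ESC SD 0.11), and no ESC population overlapped them. The H19 promoter was lower in NPCs by 0.30 (-0.30; ESC SD 0.055; NPC arrays -0.17 and -0.31), the H19 body by 0.51 (-0.51; SD 0.14) and the sequence downstream of it by 0.51 (-0.51; SD 0.10). The 3 largest negative differences in 2 kb tiles were all in the sequence between H19 and Igf2, in the tiles that start at 149804001 (-1.20), 149802001 (-1.12) and 149810001 (-1.03), and each had the same sign on R1 and R2. In the first of these the ratio went from 0.43 ± 0.12 in ESCs to -0.78 and -0.75 on the NPC arrays.

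The higher parts were the imprinting control region, the 5′ part of Igf2 and the end of the tiling beyond Igf2as. The imprinting control region was above the ESC mean by 0.83, with NPC arrays at 1.27 and 1.31. The ESC SD was 0.039, and R1 and R2 of tSBE(6+2)-Vp64 ESCs differed by 0.23. Against tSBE(6+2)-Vp64 ESCs on the same slide NPCs were higher by 0.77. The difference from the ESC mean was 0.54 after loess and scale normalization and 0.47 in the deposited ratios. The 3 largest increases in 2 kb tiles were at 149848001 (1.33), 149846001 (1.17) and 149856001 (1.00). The first tile lies just upstream of the highest group of Igf2 start sites, the second holds that group, and the third lies at the end of Igf2as. The window of that group of start sites was 1.34 above the ESC mean (1.03 above tSBE(6+2)-Vp64 ESCs on the same slide), and 0.49 and 0.59 with loess and scale normalization and in the deposited ratios. At the most upstream start of Igf2 the difference was 0.555, but 0.053 after loess and scale normalization and -0.054 in the deposited ratios, so its direction depended on the scaling. The same held for the Igf2 body as a whole, at 0.25 and then -0.13 and -0.12, whereas its 3′ part was lower in all 3 (-0.45, -0.575 and -0.68). Beyond Igf2as NPCs were 0.94 above the ESC mean, and 0.495 and 0.52 above it with loess and scale normalization and in the deposited ratios, where tSBE6-Vp64 ESCs, at 1.32 before that scaling, came nearest to them.

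**Figure D4:**
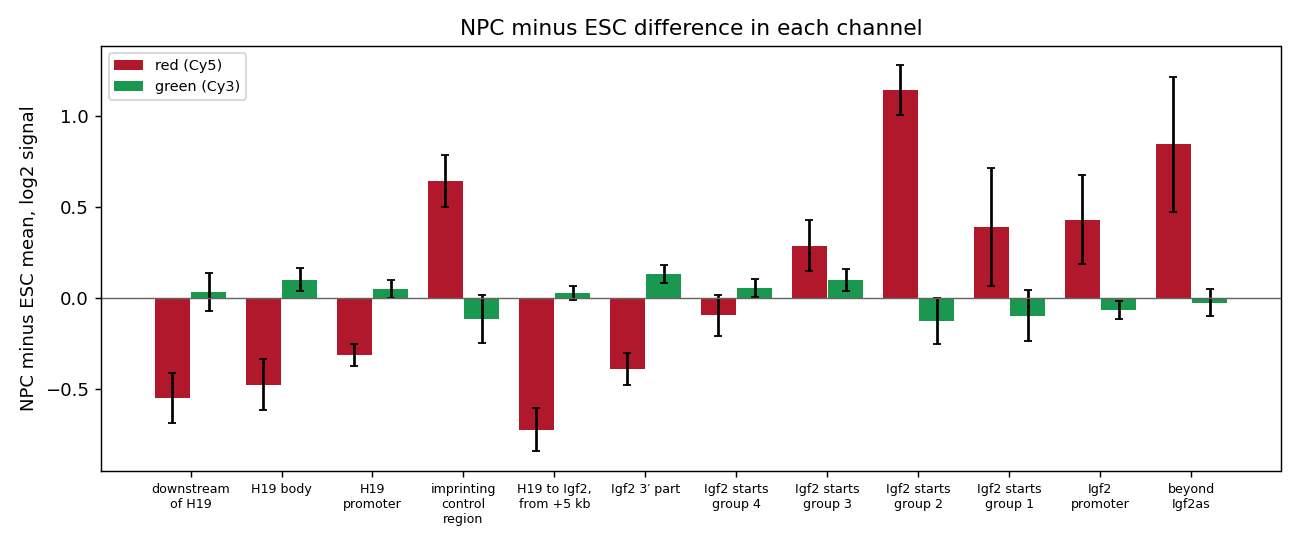
Difference of NPCs from the mean of the 5 ESC populations in log2 signal in red (Cy5) and in green (Cy3), each centred on the median of the array, for 12 windows of the domain; error bars are the SD over the 5 ESC populations. The red bars run from -0.72 to 1.14, and the green bars from -0.13 to 0.13.

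In the windows plotted, the NPC differences were larger in size in the red than in the green signal. Around Mir483, which is not plotted, the red signal was 0.25 lower (-0.25) and the green signal 0.18 higher in NPCs. At the imprinting control region it went from 0.64 ± 0.14 (SD, n = 5) in ESCs to 1.29 in NPCs on the log2 scale, while the green signal went from 0.35 ± 0.13 to 0.23. In the sequence upstream of H19 beyond its first 5 kb the red signal went from 1.155 ± 0.12 to 0.43 and the green signal from 0.78 ± 0.040 to 0.81. At the highest group of Igf2 start sites it was 1.95 ± 0.14 and 3.095 in red, and 0.030 ± 0.13 and -0.098 in green. Over the whole domain the red signal was lower in NPCs by 0.46 (-0.46) and the green signal higher by 0.029. Which channel held the ChIP DNA cannot be read from these values alone.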

How the data were processed

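H3K27me3 ChIP DNA and input DNA of 46c mESCs and NPCs, from MNase-digested native chromatin, were amplified, given a Cy3 or Cy5 dye and put on custom Agilent arrays. The authors scanned 12 arrays in green (Cy3) and red (Cy5) and deposited spot intensity values from Agilent Feature Extraction 11.5.1.1, 1 file per colour. Normalized log2 ratios of ChIP over input, R1 and R2 combined, were deposited in 1 further table; the submitters' processing notes name limma, and how the ratios were normalized is not given in the sources used here. The paper's methods cover other arrays (H3K27ac).

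From the processed intensity values, log2 red over green was taken for each probe. Spots marked as non-uniform or population outliers in either colour were left out (7 to 96 of the 1318 probes of the domain per array; 1067 had no mark on any array), and each array was centred on its median with no loess. R1 and R2 were averaged. Tile values are means of probes in 5000 bp, where each array kept 5 probes or more (963 tiles, 21 in the domain). The contrasts, NPCs against 5 ESC populations and 4 TALE-Vp64 populations against eGFP, were fitted by limma 3.58.1 (R 4.3.3) with Benjamini-Hochberg adjustment over all tiles at 0.05. The fits were tested on simulated tiles with known shifts. Levels were compared over the 6 condition means by an exact two-sided sign-flip permutation test (Python 3.11.15, NumPy 2.4.6), adjusted over 3 comparisons with other sequence and over 4 pairs of windows. Coordinates are mm9 (NCBIM37), as in the file headers, with GENCODE genes of that build, and sequences were read from that genome. The number of arrays limits the precision.

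Text names the annotated genes that overlap the domain, the promoter, imprinting control, body and intergenic windows, the 3 highest and 3 lowest 5 kb tiles by mean over the 6 conditions, and the 3 largest NPC differences in 2 kb tiles in each direction. The members, windows, lists and rules were chosen with earlier results of these data known. The Igf2 start-site windows, the Igf2 parts, the microRNA surroundings, the sequence beyond Igf2as, the printed probes and the setting without NPCs were chosen after seeing the values. Alternatives were loess with scale normalization, normexp (offset 50, on median signals, since mean signals were not used here), the deposited ratios, filters on dim probes, other tile sizes, medians, narrower promoters, single arrays, arrays as separate samples, slide in the fit, NPC values divided by their slope, GC trend removal and each population left out.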

Additional observations from a re-analysis of the deposited data

How the results depend on the processing

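The lower NPC ratios kept their direction under every alternative run, with -0.67 to -0.54 for the sequence between H19 and Igf2 and -0.47 to -0.22 for the H19 promoter, and the imprinting control region stayed higher, at 0.47 to 0.86. Calls of tiles in the domain were fixed by its choice and are given only to describe the fit. The tiles called higher in NPCs, 4 of 21, were 0 with loess and scale normalization, 0 with NPC values divided by their slope, and 2 each with the deposited ratios, with 10 kb tiles and with slide in the fit, where 1 ESC population shares the slide of NPCs; the tiles called lower, 15, were 31 of 51 with 2 kb tiles and 8 of 11 with 10 kb tiles, which are counts over other numbers of tiles. The Igf2 body turned from 0.25 to -0.13 with loess and scale normalization, -0.12 in the deposited ratios, -0.096 with medians over probes and -0.023 with NPC values divided by their slope; the cause was not tested. Over the array, 259 tiles were higher and 111 lower in NPCs, 201 and 330 in the deposited ratios and 214 and 158 with probes well above background in green; the deposited ratios had a median difference of -0.10 in place of 0.052, and a median of -0.63 in the domain. Over the array 65 tiles were lower with NPC values divided by their slope, 72 without replicate 1, 72 without eGFP and 228 with arrays as separate samples.

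The mean level of the domain against the Hoxd region turned from -0.12 to 0.015 with medians over probes, and was -0.67 with probes well above background in red and -0.0058 without NPCs, a setting chosen after seeing the data. Against all other probes it went from 0.41 to 0.20 with probes well above background in red and 0.21 in the deposited ratios. Its differences from the Hoxd and Shh regions passed the adjusted threshold at -0.23 and 0.51 with loess and scale normalization, -0.32 and 0.44 with probes well above background in green, and -0.20 and 0.54 with the GC trend removed. These tests count NPCs, whose values were used in choosing the domain, and the cause was not tested. With 1 population left out, 5 conditions cannot give an exact p below 0.0625, so no pair of windows could pass; the differences then ran from -1.27 to -1.04 for the H19 promoter against the Igf2 promoter, from 0.41 to 0.65 for the imprinting control region against the H19 promoter, from -0.64 to -0.53 for the imprinting control region against the Igf2 promoter and from -0.79 to -0.61 for the sequence between the genes against the Igf2 body, and every one kept its sign.

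The labels link R1 or R2 of different conditions by no more than the number. The R1 deviations of different conditions correlated at -0.25 to 0.43, with the highest value between eGFP and tShh-Vp64 ESCs, both on slide 1. With arrays as separate samples and the array number as a replicate block, 4 tiles of the domain were higher and 16 lower in NPCs, as without the block, and 0 differed between TALE-Vp64 and eGFP ESCs in either fit; over the array the block gave 325 higher and 214 lower. Leaving out R1 or R2 left 3 or 4 tiles higher and 14 or 15 lower. Dim green signals limit the ratios most at the second group of Igf2 start sites and beyond Igf2as.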

Other observations

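Inside the sequence between H19 and Igf2 a short stretch stood above its surroundings. The 2 kb tile that starts at 149818001 had a log2 ratio of 1.15 in eGFP ESCs, 0.845 with tShh-Vp64, 0.84 with tSBE6-Vp64, 1.08 with tSBE2-Vp64, 1.00 with tSBE(6+2)-Vp64, and 0.44 in NPCs, where the intergenic mean was 0.53 ± 0.11 (SD, n = 5) in ESCs and -0.078 in NPCs. The tile just downstream of Igf2, which starts at 149834001, was higher still in ESCs, at 1.22 ± 0.15, and lower in NPCs, at 0.26. Both tiles were picked after their values had been seen, and no annotated gene lies in them. Their values are a description, since the contrast of NPCs with ESCs chose the domain. Among 17 windows of the domain no ESC population stood apart from the other 4 by Dixon's test.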
